A study of Homo sapiens with 4 samples.

Results

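The genes described here encode the proteasome, the protease complex that degrades ubiquitin-tagged proteins, in LASCPC-01 cells with and without fluoxetine. They were chosen by name: every row of the expression table whose symbol opens with PSMA to PSMG and a digit, without PSMB8 and PSMB9. Of 16376 genes in the table, 46 rows matched. PSMC3IP and PSME3IP1 only share the letters, which left 44 proteasome genes, namely 15 of the core particle (PSMA and PSMB), 17 of the regulatory particle (PSMC and PSMD), 5 activators and inhibitors (PSME and PSMF) and 7 assembly factors (PSMG, PSMD5, PSMD9 and PSMD10). PSMA8 and PSMB11 were not analysed here.

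LASCPC-01 is a neuroendocrine prostate cancer (NEPC) cell line made by joint expression of NMYC and activated AKT1, and the labels give its genotype as WT in all 4 samples. The comparison is between 2 libraries of cells given PBS, the control, and 2 of cells given fluoxetine, an antidepressant that blocks serotonin reuptake. The labels give day 3 and no dose for both groups, whereas the text of the study gives a dose and a shorter time, and PP stands in the titles of both samples whose treatment tag reads Fluoxetine. All libraries come from 1 cell line, and nothing says that the libraries of a group came from separate cultures, so the p-values below measure only the spread between these samples, which may be technical. Expression is given as FPKM, fragment numbers divided by gene length and library depth.

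The proteasome is a barrel with a gate at each end. Rings of alpha subunits form the gates, and rings of beta subunits, some of which carry the proteolytic sites, line the chamber between them. A regulatory particle docks on the alpha ring, where its non-ATPase subunits bind and strip ubiquitin and its ATPase ring unfolds the substrate and threads it inside. Other activators (PSME) can dock in its place, and dedicated chaperones build both particles. When proteasome activity falls short, the transcription factor NFE2L1 is known to raise proteasome genes together, through antioxidant response elements in their promoters.

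Such an element can be written TGACNNNGC, read on either strand. In the RefSeq promoter windows (GRCh38.p14, 250 bases before to 50 after the start), 38 of the 44 proteasome genes had an entry and 14 of them (36.8%) held these letters, as did 19.2% of the 10250 tested genes with an entry. Counted by window, since some genes have several, 14 of 46 windows of the members held them, beside 13.3% of all 35116 windows. The CCAAT box, searched on both strands too, stood in 18 of the 38 (47.4%) and in 43.6% of the tested genes. A match is a description of the letters and not a binding site. The 4 stretches below were picked after the values were seen, because they belong to holders of the motif at both ends of the range of fold changes, PSMB3 and PSME2 among the highest and PSMD5 and PSMD12, which were the 2 lowest of all members. Each is read 5′ to 3′ on the strand of its gene, with the motif in capitals between flanks of 20 bases.
PSMB3: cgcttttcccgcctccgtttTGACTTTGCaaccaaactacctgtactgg
PSME2: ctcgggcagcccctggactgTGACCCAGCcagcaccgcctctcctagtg
PSMD5: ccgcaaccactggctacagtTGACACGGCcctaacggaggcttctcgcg
PSMD12: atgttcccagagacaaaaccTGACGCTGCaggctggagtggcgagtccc
They lie upstream of the RefSeq start: at chr17:38752617-38752665 on the plus strand for PSMB3 (104 bases before the start), and on the minus strand at chr14:24146757-24146805 for PSME2 (175 bases), chr9:120843028-120843076 for PSMD5 (134 bases) and chr17:67366714-67366762 for PSMD12 (165 bases). The stretch of PSME2 still lies inside the span that GENCODE 29 gives this gene, chr14:24143362-24147570, and the other 3 lie outside theirs.

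The libraries were read at a depth of 32873603 and 34756748 reads for PBS and 34806710 and 34831389 for fluoxetine, as solved from the FPKM, so that 1 read in a gene of 1 kb was worth between 0.0287 and 0.0304 FPKM. Every member had reads in every library, from 1041 (PSMB10 in PBS replicate 2) to 13127 (PSMD2 in fluoxetine replicate 2), each the smallest whole number that fits, so that true numbers can be multiples. The reads of the 2 PBS libraries differed by a chi-square per degree of freedom of 9.02 and those of the 2 fluoxetine libraries by 10.9, where counting noise alone gives about 1, so no library was a copy of another. Of the neuroendocrine markers, MYCN, NCAM1 and INSM1 were high in both groups (means of 378, 51.6 and 22.3 FPKM under PBS), whereas SYP was at 0.517 and CHGA at 0.0443 FPKM. The luminal marker KLK3 was near the floor, at a mean of 0.0949 FPKM under PBS and 0.181 under fluoxetine. These values rest on 10 and 2 reads against 7 and 17, and the groups overlapped (log2 fold change 0.56 ± 0.48, limma adjusted p = 0.728).

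The mean of the members over the 4 libraries ran from 7.74 FPKM for PSMG4 to 239 FPKM for PSMA7, a 30.9-fold range, and the lowest stood at the 49.4th percentile of the 12663 genes tested. Subunits that sit once in each ring differed widely in RNA per length. In the alpha ring, PSMA7 (239 FPKM) and PSMA3 (126 FPKM) led and PSMA5 (21.5 FPKM) closed, an 11.1-fold span, and only PSMA6 and PSMA2 overlapped as neighbours in that order. In the beta ring the order ran from PSMB4 (191 FPKM) through PSMB3, PSMB1, PSMB6, PSMB7, PSMB5 and PSMB2 to PSMB10 (36.1 FPKM), with overlap between PSMB3 and PSMB1 and between PSMB7 and PSMB5. Of the ATPases, PSMC3 (95.6 FPKM) and PSMC5 (94.1 FPKM) overlapped at the top, above PSMC4, PSMC2, PSMC6 and PSMC1 (14.5 FPKM). The non-ATPases had a leading group of PSMD8, PSMD4, PSMD2 and PSMD3 (134 to 117 FPKM), each overlapping with the next, and a tail that ended with PSMD12 (14.0 FPKM).

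The comparison of fluoxetine with PBS asks whether proteasome RNA differed between treated and vehicle cells. None of the 44 members passed an adjusted p of 0.05 (limma on log2(FPKM + 0.1), Benjamini-Hochberg over 12663 genes), where 0.237% of all tested genes did, 30 in all. Before adjustment, 10 members had a p under 0.05 and all 10 were higher under fluoxetine, beside 3.73% of all genes with such a p and direction. Adjusted p of the members lay between 0.381 and 0.996. The differences were small and mostly of 1 sign: 41 members were higher under fluoxetine and 3 lower (PSMD5, PSMD12 and PSMF1), beside 43.5% of all genes higher, and the median log2 fold change was 0.12 against −0.02 for all tested genes. In 24 members (54.5%) both fluoxetine libraries lay above both PBS libraries, beside 16.7% of all genes. In 2 members (4.55%) both lay below, beside 24.8%, and the groups overlapped in the other 18. Members share libraries and are not replicates of the treatment, so these counts describe the 4 libraries. Rescaled to TPM, the members were 35 higher and 9 lower, with 19 above and 4 below, beside 10.7% and 32.1% of all genes.

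Summed over the 44 genes, proteasome RNA was at 2977 and 2765 FPKM under PBS and at 3253 and 3037 FPKM under fluoxetine. The groups did not overlap, the fluoxetine mean was 9.55% higher, and an exact permutation test of 2 against 2 libraries cannot give a two-sided p below 0.333. The summed FPKM of all tested genes was also higher, at 364620 and 355630 under PBS and 378970 and 365650 under fluoxetine, a mean 3.38% higher without overlap and with the libraries in the same order. Fluoxetine replicate 1 was the highest library for 35 members and PBS replicate 2 the lowest for 30. Taken library by library, fluoxetine replicate 1 exceeded PBS replicate 1 in 41 of 44 members with a median log2 difference of 0.13, and PBS replicate 2 in 39 with 0.22. Fluoxetine replicate 2 exceeded PBS replicate 1 in 27 with 0.03, and PBS replicate 2 in 34 with 0.09. Replicates of a group differed on the same scale: PBS replicate 1 exceeded PBS replicate 2 in 35 members with a median of 0.05, and fluoxetine replicate 1 exceeded fluoxetine replicate 2 in 38 with 0.09. Without fluoxetine replicate 1 the members' median log2 fold change was 0.07, with 33 higher, and without PBS replicate 2 it was 0.08. In RNA from whole cultures, fewer cells of a type and less RNA per cell cannot be told apart.

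The proteolytic sites of the core particle lie on PSMB5, PSMB6 and PSMB7, which GENCODE 29 places on GRCh38 at chr14:23016543-23035230 (minus strand), chr17:4796144-4798503 (plus strand) and chr9:124353466-124415444 (minus strand). PSMB5, which cuts after hydrophobic residues and is the main target of bortezomib, was at 82.7 and 65.5 FPKM under PBS and at 89.1 and 84.9 FPKM under fluoxetine. PSMB6, the caspase-like subunit, was at 109 and 96.6 FPKM under PBS and at 120 and 115 FPKM under fluoxetine. PSMB7, the trypsin-like subunit, was at 86.1 and 74.2 FPKM under PBS and at 90.8 and 82.7 FPKM under fluoxetine. Both fluoxetine libraries were above both PBS libraries for PSMB5 and PSMB6, with PBS replicate 2 lowest by the widest gap, and overlapped with PBS for PSMB7. Their log2 fold changes were 0.24 ± 0.10 (SE, n = 2 libraries per group), 0.20 ± 0.08 and 0.12 ± 0.09, with limma adjusted p of 0.541, 0.538 and 0.686. PSMB10, which takes the place of PSMB7 in the immunoproteasome and lies at chr16:67934502-67937087 (minus strand), had the largest log2 fold change of all members, 0.28 ± 0.08 (limma adjusted p = 0.381). It was at 34.7 and 30.7 FPKM under PBS and at 40.8 and 38.4 FPKM under fluoxetine, without overlap.

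The other core subunits give shape and gate. PSMB3 was at 148 and 123 FPKM under PBS and at 163 and 159 FPKM under fluoxetine, and PSMB4, the most abundant beta subunit, at 190 and 176 against 211 and 186 FPKM. Fluoxetine lay above PBS in both libraries for PSMB3 (log2 fold change 0.26 ± 0.09, limma adjusted p = 0.511) and overlapped with it for PSMB4 (0.11 ± 0.08). PSMB2 had the smallest difference of the core, at 58.7 and 58.2 FPKM under PBS and 59.7 and 58.5 FPKM under fluoxetine. In the alpha ring, PSMA7 was at 240 and 201 FPKM under PBS and at 268 and 246 FPKM under fluoxetine (0.23 ± 0.09, limma adjusted p = 0.552). PSMA5, the least abundant alpha subunit, had the largest difference of the ring, at 21.0 and 18.3 FPKM under PBS and 25.5 and 21.3 FPKM under fluoxetine (0.25 ± 0.10, limma adjusted p = 0.538). For both, fluoxetine replicate 1 stood highest and the groups did not overlap, although for PSMA7 and PSMA5 fluoxetine replicate 2 exceeded PBS replicate 1 only narrowly. PSMA4 had the smallest alpha difference, at 31.4 and 32.5 FPKM under PBS against 35.3 and 30.7 FPKM, with fluoxetine replicate 2 the lowest of the 4. All 15 core genes were higher under fluoxetine on average, 9 without overlap, beside 43.5% and 16.7% of all tested genes. Their median log2 fold change was 0.16 (alpha ring 0.14, beta ring 0.18).

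In the regulatory particle 16 of 17 genes were higher under fluoxetine on average, 9 without overlap, beside 43.5% and 16.7% of all tested genes. The median log2 fold change of the particle was 0.11. Its ATPases, PSMC1 to PSMC6, form the ring that unfolds substrates, and all 6 were higher on average, 4 without overlap, with a median log2 fold change of 0.12. PSMC3 had the largest, at 93.6 and 88.1 FPKM under PBS and 103 and 98.1 FPKM under fluoxetine (0.14 ± 0.07, limma adjusted p = 0.598). PSMC1, the least abundant, was at 14.0 and 13.6 FPKM under PBS and 16.6 and 13.6 FPKM under fluoxetine, so its difference of 0.12 ± 0.10 came from fluoxetine replicate 1 alone and was −0.02 without it. PSMC6 had the smallest difference of the ring, at 18.8 and 19.2 against 21.2 and 18.4 FPKM.

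Of the 11 non-ATPases, which recognise and deubiquitinate substrates and clamp the particles together, 10 were higher on average and 5 lay above PBS without overlap. Across all tested genes these shares were 43.5% and 16.7%. The median log2 fold change of the non-ATPases was 0.09. PSMD13, a lid subunit, had the largest difference, at 56.8 and 53.5 FPKM under PBS and 65.9 and 60.8 FPKM under fluoxetine (0.20 ± 0.07, limma adjusted p = 0.532). PSMD2, a large scaffold subunit that docks ubiquitin-like domains, was at 115 and 109 against 124 and 125 FPKM (0.16 ± 0.07, limma adjusted p = 0.568). In both genes the fluoxetine libraries stood clear of the PBS libraries. PSMD8, the most abundant, was at 134 and 133 FPKM under PBS and at 141 and 128 FPKM under fluoxetine, which bracketed PBS. The deubiquitinase PSMD14 was at 66.9 and 56.2 against 69.5 and 65.4 FPKM, with overlap. PSMD12, a lid subunit, was the 1 member of the regulatory particle that was lower in both fluoxetine libraries, at 14.3 and 14.5 FPKM under PBS and 13.9 and 13.0 FPKM under fluoxetine (−0.10 ± 0.08, limma adjusted p = 0.722).

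PSME1 and PSME2 form the joint activator that interferon induces. PSME2 was without overlap, at 48.7 and 43.7 FPKM under PBS and 54.2 and 54.9 FPKM under fluoxetine (0.24 ± 0.08, limma adjusted p = 0.427). PSME1 was at 72.4 and 64.6 against 74.7 and 67.6 FPKM (0.05 ± 0.08), with overlap. PSME1 and PSME2 have exons that overlap genes on the opposite strand (EMC9 and RNF31), and PSME2 has 2 named pseudogenes, so their reads are uncertain. The difference between the 2 genes was not tested. PSME3, the nuclear activator, was at 73.0 and 76.0 FPKM under PBS and 75.6 and 73.6 FPKM under fluoxetine, and PSME4, a large nuclear activator that acts on histones, at 16.7 and 17.2 against 16.7 and 17.9 FPKM. PSMF1, an inhibitor in vitro that also acts as an adaptor, was at 14.3 and 15.9 against 14.6 and 14.4 FPKM (−0.06 ± 0.09). For all 3 genes the groups overlapped, and the median log2 fold change of the 5 genes was 0.02.

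Of the 7 assembly factors, 6 were higher under fluoxetine on average, beside 43.5% of all tested genes, with a median log2 fold change of 0.14. Both fluoxetine libraries lay above both PBS libraries in 5 and below in 1, beside 16.7% and 24.8% of all tested genes. PSMG1 and PSMG2, and PSMG3 and PSMG4, work in pairs as chaperones of the alpha ring. PSMG1 was at 30.6 and 29.9 FPKM under PBS and 33.9 and 31.9 FPKM under fluoxetine, and PSMG2 at 30.6 and 28.7 against 35.1 and 28.1 FPKM. PSMG3 was at 30.8 and 29.8 FPKM under PBS and 36.1 and 32.3 FPKM under fluoxetine, and PSMG4 at 7.52 and 7.23 against 7.81 and 8.42 FPKM. The groups overlapped for PSMG2 and not for the other 3, whose log2 fold changes were 0.12 ± 0.07, 0.17 ± 0.08 and 0.14 ± 0.09. Of the chaperones of the ATPase ring, PSMD9 and PSMD10 were higher and PSMD5 lower on average, and the difference between them was not tested. PSMD9 was at 15.2 and 12.2 FPKM under PBS and 15.98 and 16.48 FPKM under fluoxetine (0.25 ± 0.10, limma adjusted p = 0.552), and PSMD10, also known as gankyrin, at 21.9 and 21.4 against 26.1 and 22.9 FPKM (0.17 ± 0.08, limma adjusted p = 0.585). PSMD5 was at 22.7 and 22.3 FPKM under PBS and 20.2 and 21.5 FPKM under fluoxetine, lower in both libraries (−0.11 ± 0.08, limma adjusted p = 0.678). None of these 3 overlapped between groups.

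Core and regulatory genes were then set side by side. Summed FPKM of the core were 1410 and 1258 under PBS and 1559 and 1440 under fluoxetine, a mean 12.4% higher, and those of the regulatory particle were 1183 and 1138 against 1283 and 1207, a mean 7.30% higher. The ratio of core to regulatory FPKM was 1.19 and 1.11 under PBS and 1.22 and 1.19 under fluoxetine, so PBS replicate 2 stood apart from the other 3. The median log2 fold change of the core exceeded that of the regulatory particle by 0.05. On another measure, the mean log2 of the core minus that of the regulatory particle was 0.41 and 0.31 under PBS. It was 0.44 and 0.42 under fluoxetine, and its SD between replicates was 0.051. The 2 PBS libraries differed by a median of 0.17 in the core and 0.04 in the regulatory particle.

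Gene length moved with these values. The length behind the FPKM had a median of 1676.5 bases for the members, 984 for the core and 1754 for the regulatory particle, beside 3850 for all tested genes with a length. Across the 44 members, which share 4 libraries, log2 fold change and log2 length had a Pearson r of −0.56 and a Spearman rho of −0.55, and across all tested genes the Pearson r was −0.20. The deviation of each library from the mean correlated with log2 length across 12576 genes at 0.056 and 0.19 for PBS and −0.28 and 0.046 for fluoxetine, so PBS replicate 2 and fluoxetine replicate 1 had the strongest correlations, of opposite sign. Split at 2000 bases, a limit chosen after the data were seen, the 24 shorter members had a median log2 fold change of 0.14 and the 20 longer ones 0.08, beside 0.06 and −0.04 for all tested genes. With the length trend removed from each library, the members' median was 0.08, 40 were higher, 25 lay above without overlap (19.5% of all genes), and the core exceeded the regulatory particle by −0.0028. PSMB10 then stood at 0.19, PSME2 at 0.14, PSMA5 at 0.27, PSMD9 at 0.23 and PSMD5 at −0.10.

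Of 38 genes of the same pathway with other names, 18 (47.4%) were higher and 20 lower, beside 43.5% of all tested genes higher. Of these 38, 7 (18.4%) lay above and 10 (26.3%) below PBS without overlap, beside 16.7% and 24.8% of all tested genes. The median log2 fold change of the 38 was −0.01. None had an adjusted p under 0.05 in limma, and none an unadjusted p under 0.05. Among 12 partners of the regulatory particle the median was −0.01, with the ubiquitin receptor ADRM1 at 70.7 and 68.6 FPKM under PBS and 74.3 and 72.9 under fluoxetine. Of 3 further assembly and import factors, POMP, which matures the core, was at 39.5 and 36.7 against 45.8 and 37.6 FPKM, and AKIRIN2, which brings proteasomes into the nucleus, at 33.4 and 34.4 against 33.286 and 28.997 FPKM.

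NFE2L1, the transcription factor for proteasome genes, was lower in both fluoxetine libraries, at 76.6 and 79.1 FPKM under PBS and 68.0 and 73.8 FPKM under fluoxetine (−0.14 ± 0.07, limma adjusted p = 0.613). Of the 8 genes in its list, 2 were higher and 6 lower, beside 43.5% of all tested genes higher. Both fluoxetine libraries lay above PBS in 1 and below it in 3, beside 16.7% and 24.8% of all tested genes. None of the 8 had an unadjusted limma p under 0.05. MAFF, a small partner of this factor family, was at 8.92 and 7.66 against 7.36 and 6.99 FPKM (−0.20 ± 0.10, limma adjusted p = 0.603). RNA does not show the activity of NFE2L1, which is controlled by cleavage and degradation of the protein. Among the 14 members whose promoter window held TGACNNNGC, 7 lay above and 2 below PBS without overlap, beside 16.7% and 24.8% of all tested genes. The median log2 fold change of these 14 was 0.09, against 0.12 for the 24 members with an entry and no match. Of the 6 genes of ubiquitin and its activation, 4 were higher (median 0.09), beside 43.5% of all tested genes. Of the 9 genes of p97 and its cofactors, 6 were higher (median 0.01), beside the same 43.5%. VCP, the segregase that extracts ubiquitinated proteins, was at 120 and 109 against 124 and 127 FPKM.

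Some members may share reads with other loci. In GENCODE 29, 10 members have 30 named pseudogenes between them, 13 of which belong to PSMC1, 4 to PSMA6 and 3 each to PSMA2 and PSMD10. The exons of 10 members overlap a gene on the opposite strand (PSMA2, PSMC1, PSMC5, PSMD13, PSME1 to PSME4, PSMG2 and PSMG4), and the strand setting of the counting is not given in the sources used here, so the values of these genes are uncertain.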

How the data were processed

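RNA of 4 LASCPC-01 samples was sequenced, and the authors deposited FPKM for 16376 genes, 1 value per library. The labels list fastp, HISAT2, HTSeq and GRCh38 without versions, and the annotation is not given in the sources used here. The library kit is TruSeq Stranded mRNA in the labels and VAHTS Universal in the study's methods. Groups were taken from the treatment labels.

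Reads were solved from the FPKM as the smallest whole numbers, within a tolerance of 0.004, that gave the ratios between libraries. This succeeded for 16006 of 16080 genes above 0 (99.5%). The absolute depth was set with GENCODE 29 exon lengths, as the value shared by 51 genes, where 4 shared the next. Gene lengths followed from that depth, and reads were scaled by the smallest factor that made the length whole. True read numbers can be multiples of those given. The 12663 genes whose mean FPKM reached 0.1 were fitted on log2(FPKM + 0.1) with limma 3.58.1 in R 4.3.3 (variance trend, two-sided, Benjamini-Hochberg). Fold changes are on that scale, which understates those of low genes. The fit was tested on simulated data in which the changes put in were larger than the difference of any member. That test does not show whether differences of the members' size would be called. Tables, motif searches and figures were made in Python 3.11.15. Coordinates of genes came from GENCODE 29.

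The members and lists were chosen with earlier results of these data known. Values per library are given for the catalytic subunits, PSMB10, the PSME, PSMF and PSMG genes, the PSMD assembly factors, and the highest, lowest and most different genes of each ring, with PSMB3, PSMD2 and PSMD14 added after their values were seen. Of the other lists, NFE2L1, POMP, ADRM1 and the gene with the smallest p are named. The results for some genes are not reported here. Replicate numbers come from the titles, and deviations from the group means correlated at 0.035 between libraries of 1 number, so they were not taken as paired. Alternatives were pseudocounts of 1 and 0.01, no filter, a minimum mean FPKM of 1, TPM, quantile normalization, median centring, removal of the length trend (lowess, span 0.3), a fit with no variance trend, robust moderation, a replicate block and each library left out. limma voom on the recovered reads was chosen after seeing the data.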

Additional observations from a re-analysis of the deposited data

How the results depend on the processing

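No member had an adjusted p under 0.05 in any of the 16 alternatives, where the lowest was 0.139, and members with an unadjusted p under 0.05 numbered 0 (without PBS replicate 2) to 15 (median centring). With the replicate block, 0 members were called, but 14 had an unadjusted limma p under 0.05, against 10 in the main fit. The limma adjusted p of PSMB10 was 0.151 with the block. The counts of 24 above and 2 below do not depend on the block, so they could not differ. Members with both fluoxetine libraries below PBS numbered 4 in TPM. With 1 library left out, they numbered 2 to 8 (8 without fluoxetine replicate 1, 4 without PBS replicate 1) and those above 25 to 39 (39 without fluoxetine replicate 2), while 36.3% to 43.3% of all genes lay below and 29.1% to 32.8% above. The difference between core and regulatory medians was −0.0028 with the length trend removed and 0.02 to 0.09 with 1 library left out. The median of the members was 0.07 in TPM, and 0.07 to 0.18 with 1 library left out. Of 52 genes followed singly, 13 turned direction in 29 of 832 gene values, none of them past the threshold. In TPM these were PSMA4 (−0.0035), PSMB2 (−0.031), PSMD1 (−0.038), PSMD8 (−0.042), PSME3 (−0.045) and PSME4 (−0.026). Under quantile normalization they were PSMB2 (−0.024), PSMD1 (−0.0073), PSMD8 (−0.057) and PSME3 (−0.041), and with the length trend removed PSMD8 (−0.051), PSME1 (−0.037) and PSMF1 (0.031). With 1 library left out, log2 fold changes ran from −0.027 to 0.032 for PSME3, −0.027 to 0.14 for PSME1, −0.019 to 0.27 for POMP, −0.020 to 0.26 for PSMC1, −0.044 to 0.063 for PSMD1, −0.048 to 0.16 for PSMC6, −0.056 to 0.14 for PSMA4, −0.065 to 0.077 for PSMD8, −0.077 to 0.24 for PSMG2, −0.028 to 0.072 for PSME4, −0.038 to 0.31 for PSMA2 and −0.13 to 0.022 for PSMF1. The cause was not tested. With 2 libraries per group, the SE of 0.07 to 0.10 limits what can be told apart.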
